A study of Mus musculus with 96 samples.

Results

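The miR-26 family was followed through the first 4 weeks after acute myocardial infarction (AMI) in the 4 major cell types of the mouse heart. Its members were taken by name from the deposited tables of mature miRNA counts and are mmu-miR-26a-5p, mmu-miR-26b-5p and mmu-miR-26b-3p (written without the mouse prefix from here on), 3 of the 1978 mature names listed, of which 1561 had a count above 0 in some library. Hematopoietic cells (HCs), fibroblasts (FBs), endothelial cells (ECs) and cardiomyocytes (CMs) were measured at D0, D1, D3, D7, D14 and D28, with 4 small RNA libraries in each of the 24 groups and 96 libraries in all. The mice were male C57Bl/6J animals of 12 to 14 weeks. For AMI the left anterior descending coronary artery was tied off for good, and D0 were animals without an operation, so that the effect of surgery alone cannot be told apart from that of the infarct. A library held the pooled RNA of 3 mice, and of 2 mice where 1 sample was lacking. CMs were enriched by slow centrifugation, HCs by beads against CD45, ECs by beads against CD144 and FBs by a short plating step, so each preparation could hold other cells. Input RNA and PCR cycles differed between cell types and libraries were prepared by cell type, so these cannot be told apart from cell type.

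A miRNA is cut from a hairpin precursor, whose 5p and 3p arms can each be loaded into an Argonaute protein and repress messenger RNAs that match its seed, the bases near its 5′ end. The family is known as a restraint on growth and cell division, with targets such as the histone methyltransferase Ezh2 and, in endothelial cells, the signal transducer Smad1. In the heart it has been linked to hypertrophy, to the growth of vessels and to the deposition of matrix by fibroblasts. Its hairpins lie in introns of Ctdsp genes, which encode small phosphatases of the RNA polymerase II tail.

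The mature sequences show why the family members are treated together and where they can be told apart. They were taken from RefSeq, which held all 3 members, with positions on GRCm38.p6 (mm10), and are written 5′ to 3′ with the seed, bases 2 to 8, in capitals.
miR-26a-5p: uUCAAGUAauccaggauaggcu
miR-26b-5p: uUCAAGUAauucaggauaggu
miR-26b-3p: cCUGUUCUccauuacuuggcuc
miR-26a-1-3p: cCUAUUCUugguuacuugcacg
miR-26a-2-3p: cCUGUUCUugauuacuuguuuc
Both 5p members shared the seed and their first 10 bases, and of 1679 mature names in the reference table these 2 alone carried that seed. Counted from the 5′ end of miR-26a-5p, the substitutions toward miR-26b-5p were C11U and C21U, and miR-26b-5p was 21 bases long against 22. The seed of miR-26b-3p was another and was shared by 4 names, miR-26b-3p, miR-26a-2-3p, miR-7039-3p and miR-6932-3p. miR-26b-3p differed from miR-26a-2-3p at 4 positions and from miR-26a-1-3p at 8.

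The hairpin of miR-26b is printed with its 2 mature arms in capitals, because the ratio of these arms and the reads outside them are described further on.
Mir26b: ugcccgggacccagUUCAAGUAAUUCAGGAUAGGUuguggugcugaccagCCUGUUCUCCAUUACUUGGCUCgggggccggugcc
It lies at chr1:74394310-74394394 on the plus strand, in an intron of Ctdsp1 in both transcripts that span it, with the 5p arm at chr1:74394324-74394344 and the 3p arm at chr1:74394360-74394381. miR-26a-5p is encoded by 2 hairpins with the same mature sequence, so their contributions could not be separated in the counts. Mir26a-1 is at chr9:119031796-119031885 in an intron of Ctdspl, and Mir26a-2 is at chr10:126995530-126995613 in Ctdsp2, where a single base (1) of the hairpin overlaps an exon in 2 of 3 transcripts.

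The total count on mature miRNAs ranged from 3327351 to 24279105 in CMs, from 525651 to 29037628 in ECs, from 2217588 to 65588543 in FBs and from 18286 to 29504666 in HCs. No 2 libraries held identical counts. All 13 markers of the 4 cell types had their highest level in their own cell type. The study removed a small RNA replicate from each of EC D28, FB D0 and HC D0 as an outlier, without naming it. The libraries taken as farthest within these groups were replicate 3 of EC D28, replicate 2 of FB D0 and replicate 3 of HC D0. The last held 18286 counts. Whether they are the libraries that the study removed is not known. The main tests keep these libraries. The changes of the members in these cell types that passed only with or only without them are given both ways. The means of a cell type and the hairpin shares include them, and without them none of the 18 differences in level between cell types changed its call. In bulk samples, fewer cells of a type and less RNA per cell cannot be told apart.

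In mature counts miR-26a-5p was among the most abundant miRNAs of each cell type. miR-26b-5p was lower by about an order of magnitude. miR-26b-3p was far lower, with 0 to 287 counts in a library, and was close to the detection limit at CM D0 (1 to 10 counts). The gap between the 5p members was smaller when reads listed under the hairpins were added, as given with their ratio. Levels are given as counts per 1000000 mature counts (CPM), with the mean and SD over the 24 libraries of a cell type. miR-26a-5p had a mean of 15036 ± 6049 CPM in CMs, where it ranked 16 among all mature miRNAs. It had 45205 ± 10433 CPM in ECs (rank 6), 52779 ± 6293 in FBs (rank 4) and 43463 ± 7560 in HCs (rank 5). miR-26a-5p thus made up 1.5% of mature counts in CMs and between 4.35% and 5.28% in the other cell types.

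miR-26b-5p had a mean of 1682 ± 832 CPM in CMs (rank 43), 4734 ± 1693 in ECs (rank 30), 3821 ± 955 in FBs (rank 37) and 4535 ± 1038 in HCs (rank 43). The star arm miR-26b-3p had 9.35 ± 3.44 CPM in HCs (rank 320), 6.05 ± 2.51 in ECs (rank 306), 4.68 ± 1.37 in FBs (rank 340) and 3.23 ± 2.15 in CMs (rank 289). Over all 96 libraries the 3 members had 49029189, 4385101 and 6876 counts. miR-26b-3p had no count in replicate 3 of EC D28, where 0 of 636084 counts allows up to 4.72 CPM (3 counts), or in replicate 3 of HC D0, where 0 of 18286 allows up to 164 CPM. Such limits and intervals cover counting error only. Of the other arms of the miR-26a hairpins, miR-26a-2-3p had 13496 counts in all and miR-26a-1-3p had 322, with none in 33 libraries.

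**Figure D1:**
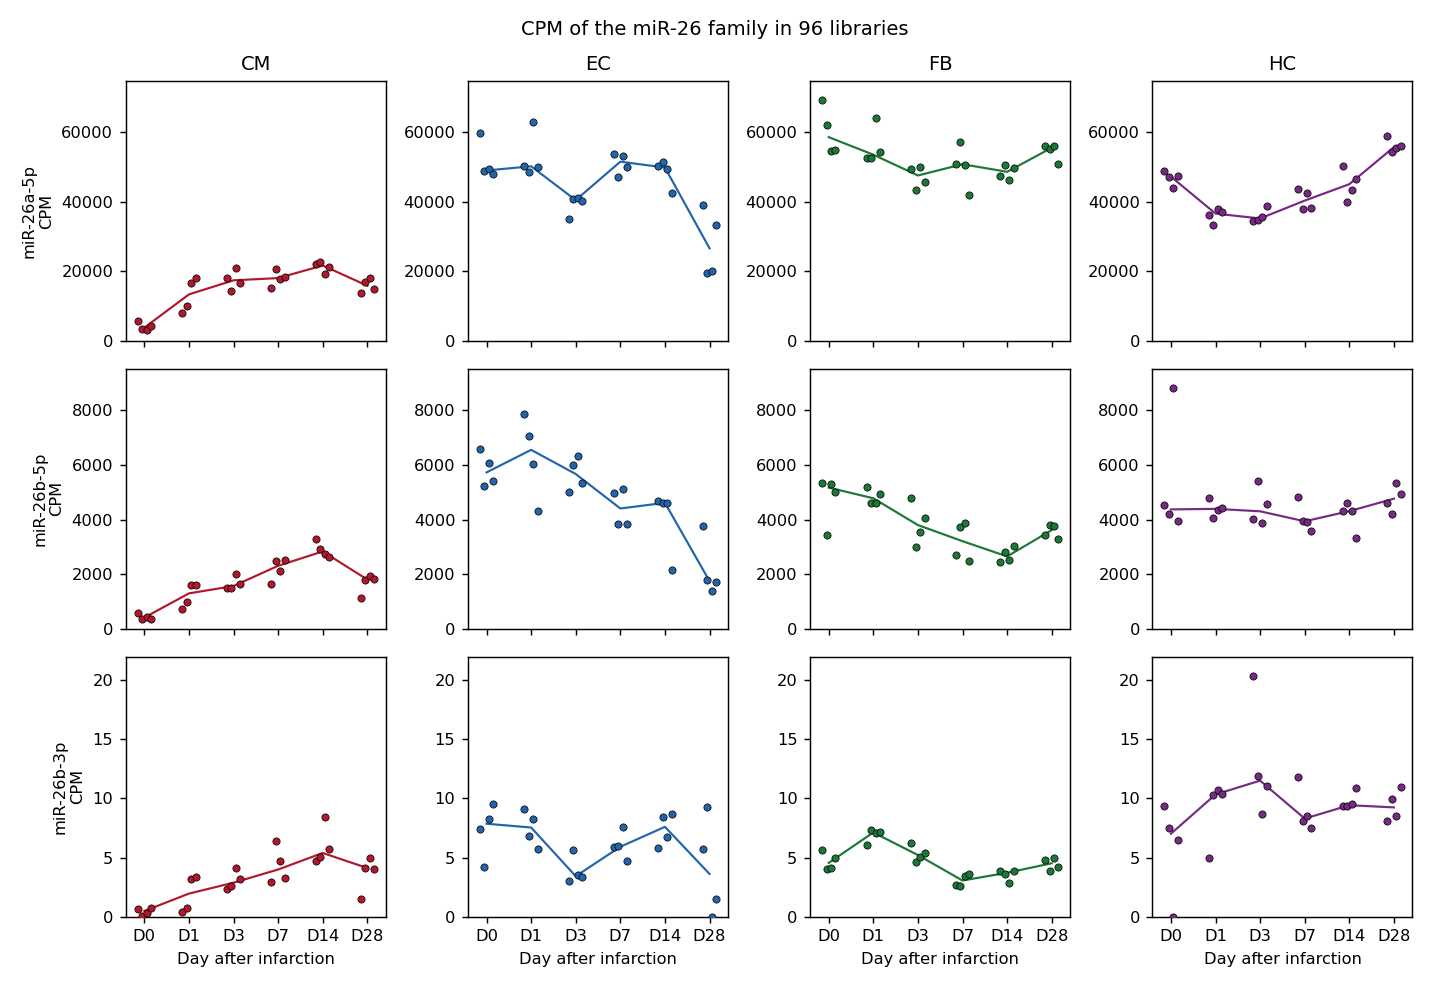
CPM of miR-26a-5p, miR-26b-5p and miR-26b-3p (rows, each with its own linear axis from 0) in the 4 libraries of each day after infarction, for CMs, ECs, FBs and HCs (columns). Points are libraries and lines join the group medians. In CMs the miR-26a-5p points at D0 sit between 3266 and 5620 CPM and all later points sit between 8091 and 22693 CPM.

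The order of the cell types depended on the scaling of the libraries. TMM scaling assumes that most miRNAs do not differ between libraries, and differences here are log2 ratios of the means over the 6 days, from edgeR's quasi-likelihood test on 712 miRNAs with Benjamini-Hochberg adjustment. On the TMM scale miR-26a-5p stood in the order FB, EC, CM and HC. FB and EC did not differ beyond their spread, with EC minus FB at -0.11 ± 0.07 (SE, adjusted p = 0.16), though the difference passed with DESeq2, at -0.21, and in 22 of 48 fits with 1 library left out. CM minus EC was -0.26 ± 0.07 (adjusted p = 0.0011) and CM minus HC was 0.55 ± 0.07 (adjusted p = 1.8e-10). Without the filter on low counts these were -0.13 and 0.18 and did not pass (adjusted p of 0.49 and 0.15). Across the 6 pairs of cell types, 5 differences passed an adjusted p of 0.05 for miR-26a-5p, 5 for miR-26b-5p and 3 for miR-26b-3p. The shares of all tested miRNAs that passed were 69.4% for CM against EC, 75.7% for CM against FB, 77.7% for CM against HC, 71.8% for EC against FB, 77.7% for EC against HC and 85.7% for FB against HC, so a difference between cell types was the rule for miRNAs at large.

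miR-26b-5p stood in the order EC, CM, FB and HC on the TMM scale. EC and CM did not differ beyond their spread, with CM minus EC at -0.17 ± 0.09 (adjusted p = 0.062), but passed with DESeq2, at -0.25, and in 6 of 48 fits with 1 library left out. CM minus FB was 0.22 ± 0.09 (adjusted p = 0.016), did not pass with DESeq2, at 0.047, and did not pass in 17 of 48 fits with 1 library left out. FB minus HC was 0.38 ± 0.09 (adjusted p = 3.3e-05). For miR-26b-3p the lowest cell type was FB, with CM minus FB at 0.67 ± 0.14, EC minus FB at 0.54 ± 0.15 and FB minus HC at -0.46 ± 0.13 (adjusted p of 1.3e-05, 0.00063 and 0.00081). The 3 pairs among CM, EC and HC did not pass for miR-26b-3p, with differences of 0.08 to 0.21 and SEs of 0.14 to 0.15.

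With library size as the only scaling, CMs came last for every member. CM minus HC was then -1.68 ± 0.07 for miR-26a-5p, -1.63 ± 0.09 for miR-26b-5p and -1.94 ± 0.15 for miR-26b-3p. CM minus FB was -1.97 for miR-26a-5p, -1.36 for miR-26b-5p and -0.87 for miR-26b-3p. This scaling moved the median over all miRNAs as well, from -0.21 to -2.27 for CM minus HC, from -0.22 to -1.62 for CM minus FB and from -0.11 to -1.36 for CM minus EC. The share of calls that were higher in CMs also moved, from 46.1% to 13.3% against HCs, from 46.0% to 18.5% against FBs and from 46.4% to 20.2% against ECs. Relative to those medians miR-26a-5p lay above in CMs against HCs under both scalings. It lay below them in CMs against ECs and in CMs against FBs, also under both scalings. Among ECs, FBs and HCs, library size alone left EC minus HC at 0.04 ± 0.06 for miR-26a-5p and at -0.01 ± 0.09 for miR-26b-5p, which did not pass, and turned FB minus HC for miR-26b-5p to -0.27 ± 0.09. Its share of higher calls was 31.0% for EC against HC, against 48.5% with TMM, and 32.6% for FB against HC, against 44.4%. At D0 alone, with TMM, CM minus HC was -0.11 ± 0.18 for miR-26a-5p and -0.10 ± 0.21 for miR-26b-5p, where neither passed. CM minus FB of miR-26b-5p was then -0.51 ± 0.21 and CM minus EC of miR-26b-3p was -1.45 ± 0.42, both lower in CMs and past the threshold (adjusted p of 0.028 and 0.0021).

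In CMs both 5p members had a higher CPM at every day after AMI, while on the TMM scale only miR-26b-3p passed the test, at 2 days. The CPM of miR-26a-5p at D0 was 5620, 3322, 3266 and 4325 in replicates 1 to 4. At D1 it was 8091, 10120, 16663 and 18117, and at D14 it was 22060, 22693, 19205 and 21346. Every library of D1 to D28 was above every library of D0. miR-26b-5p had 571, 364, 447 and 380 CPM at D0 and 3290, 2934, 2730 and 2648 at D14, again without overlap at any day.

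The counts of CM libraries at D0 were taken up by miR-1a-3p, the muscle miRNA, to a larger part than later. miR-1a-3p held 65.7% ± 5.71 of mature counts at D0 (SD, n = 4), 35.3% ± 4.53 at D14 and 52.1% ± 2.37 at D28. TMM factors, by which library sizes are multiplied, ran from 0.289 to 0.357 at D0 and from 1.91 to 2.04 at D14. On the TMM scale miR-26a-5p was at 16645, 11494, 10375 and 12119 CPM at D0 and at 11569, 11540, 9401 and 10888 CPM at D14, and the groups overlapped. Its log2 changes from D0 to D1, D7, D14 and D28 were 0.43 ± 0.19, -0.17 ± 0.19, -0.22 ± 0.19 and 0.24 ± 0.19, none with an adjusted p under 0.05. Without replicate 1 of D0 the change at D1 was 0.62 and passed (adjusted p = 0.011), as it did without replicate 1 of D1 (0.045). With DESeq2 it was 0.37 and passed (adjusted p = 0.010), as did miR-26b-5p at D14 (0.25, 0.036) and miR-26b-3p at D7 (1.07, 0.034). The test over all 6 days passed for miR-26a-5p (adjusted p = 0.023, and 0.14 without the filter on low counts) and not for miR-26b-5p (0.62) or miR-26b-3p (0.17), where 73.8% of the 484 miRNAs tested in CMs passed. The changes of miR-26b-5p lay between -0.03 and 0.23 with SEs of 0.17.

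With library size as the only scaling all 15 member changes in CMs passed, and all were higher than D0. They ran from 1.68 to 2.37 for miR-26a-5p, from 1.49 to 2.72 for miR-26b-5p and from 2.07 to 3.72 for miR-26b-3p. The median over all miRNAs was then 1.42, 2.37, 2.67, 2.99 and 1.99 at the 5 days in turn, against 0.20 to 0.44 with TMM. miR-26a-5p was above that median at D1 and below it at D3, D7, D14 and D28, by its values of 2.09, 2.13, 2.37 and 1.94. The share of calls that were higher was 91.8% to 96.3% with library size and 54.4% to 57.7% with TMM. Leaving the count of miR-1a-3p out of the library size also gave 15 of 15 member changes called higher. The share of all miRNAs that passed under these scalings is not given here, so the 15 calls are not a result about the members.

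miR-26b-3p was the member that passed in CMs on the TMM scale. Its counts were 7, 1, 5 and 10 at D0 and 26, 26, 28 and 86 at D14. As CPM these were 0.666, 0.0708, 0.311 and 0.765 at D0, with exact 95% binomial intervals from 0.00179 to 0.394 for the lowest library and from 0.367 to 1.41 for the highest. At D14 they were 4.71, 5.03, 8.42 and 5.76, and no library of D14 or D28 overlapped D0 on either scale. The log2 change was 1.17 ± 0.46 at D14 (edgeR, adjusted p = 0.030) and 1.25 ± 0.46 at D28 (0.024), beside 38.0% and 29.5% of miRNAs called higher at these days. It was 0.66 ± 0.47 at D1, 0.87 ± 0.46 at D3 and 0.98 ± 0.46 at D7, without passing, at days when 13.6%, 31.8% and 38.8% of miRNAs were called higher. Without replicate 2 of D0, which had 1 count, the change was 0.82 (adjusted p = 0.11) at D14 and 0.89 (0.097) at D28. At D14 the call was also lost without replicate 3 of D0 or without any library of D14, and at D28 without replicate 3 of D0 or of D28.

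Markers of other cell types moved with these values in the CM libraries. From D0 to D14 the median of their summed CPM went from 6724 to 24505 for 2 endothelial markers, from 38.1 to 2012 for 3 fibroblast markers and from 16.8 to 168 for 4 hematopoietic markers. All 3 fibroblast markers and 3 of 4 hematopoietic markers passed as higher at D14 on the TMM scale, and no marker was at 0 in all libraries of a group. Of the endothelial markers, 1 passed as higher and 1 as lower, beside 38.0% and 29.1% of all miRNAs. The summed CPM of the 4 cardiomyocyte markers, most of it miR-1a-3p, went from 662099 to 383072, while on the TMM scale 3 of the 4 passed as higher and 1 as lower. The part of these markers in the changes of the miR-26 family was not tested.

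**Figure D2:**
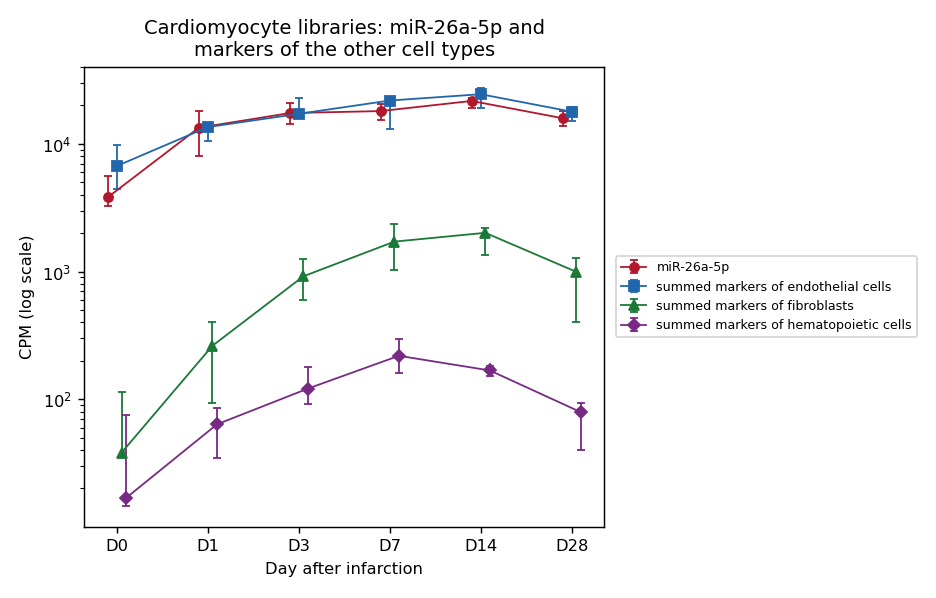
CM libraries by day after infarction: CPM (log scale) of miR-26a-5p and the summed CPM of marker miRNAs of endothelial cells, fibroblasts and hematopoietic cells, with points at the median of 4 libraries and bars from the lowest to the highest library. The fibroblast markers went from a median of 38.1 CPM at D0 to 2012 at D14, while miR-26a-5p went from 3823 to 21703 CPM.

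In ECs both 5p members fell at D28. miR-26a-5p had 59705, 48741, 49320 and 48041 CPM at D0 and 39092, 19626, 20032 and 33271 at D28, with every D28 library below D0. miR-26b-5p had 6571, 5228, 6050 and 5398 CPM at D0 and 3746, 1781, 1371 and 1715 at D28, again without overlap. The log2 change at D28 was -0.82 ± 0.21 for miR-26a-5p (adjusted p = 0.0024) and -1.42 ± 0.29 for miR-26b-5p (0.00027), where 20.2% of 421 miRNAs were called lower and 26.8% higher. Without replicate 3 of D28 they were -0.81 and -1.43, and scaled by library size alone -0.88 and -1.43. Both calls held in each alternative and with each library left out. The EC D28 libraries held 525651, 1829814, 636084 and 3902765 mature counts, against 2105446 to 20465553 at D0. Reads without a match made up 66.0% to 77.5% at D28, against 48.5% to 67.3% at D0. Leaving out 1 library cannot address such a difference between days, and its part in the fall was not tested.

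Before D28 no member passed in ECs with edgeR over the 6 days, while 5 more changes, all lower, passed with DESeq2 and 5 with the compared days alone. Both called miR-26a-5p at D3 (-0.49 and -0.42) and D7 (-0.36 and -0.35) and miR-26b-5p at D7 (-0.73 and -0.73) and D14 (-0.81 and -0.83). DESeq2 also called miR-26a-5p at D14 (-0.37), and the compared days alone miR-26b-3p at D3 (-0.85). The shares of all miRNAs that passed in these 2 ways are not given here, so the counts are not a result about the members. miR-26a-5p at D3 had 35207, 40683, 41095 and 40312 CPM, all below D0, with a change of -0.41 ± 0.21 (adjusted p = 0.19). miR-26b-5p at D14 had 4676, 4621, 4601 and 2170 CPM, all below D0, with a change of -0.72 ± 0.29 (adjusted p = 0.086), and at D7 its change was -0.74 ± 0.29 (0.063). Without replicate 3 of EC D28, which shares the estimate of spread, these changes of miR-26b-5p were -0.81 at D14 and -0.82 at D7 and passed (adjusted p of 0.032 and 0.017). The change at D7 also passed without replicate 1 of D7 (adjusted p = 0.041), and that at D14 without replicate 1 or 2 of D14 (0.030 and 0.046). In either direction 0.0%, 17.6% and 14.5% of miRNAs changed at D1, D3 and D14, and at D7 17.8% were called higher and 4.75% lower. miR-26b-3p, with 0 to 170 counts per EC library, did not pass at any day, and its change at D28 was -0.67 ± 0.49, or -1.84 with an adjusted p of 0.0057 without replicate 2 of D28. Over all 6 days miR-26a-5p and miR-26b-5p passed (adjusted p of 0.012 and 0.0003) and miR-26b-3p did not (0.30), beside 58.2% of miRNAs.

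Some EC markers moved at D28 too. The summed CPM of the 2 endothelial markers had a median of 200614 at D0 and 136462 at D28, and that of the 4 cardiomyocyte markers went from 103948 to 47616, with 1 of 2 and 4 of 4 lower. The 3 fibroblast markers went from 2385 to 5237 CPM (2 higher), the 3 red blood cell markers from 1107 to 2211 (1 higher) and the 2 mural markers from 62004 to 32830 (1 lower). Of all miRNAs 20.2% were called lower and 26.8% higher at D28. The liver miRNA miR-122-5p went from 152 to 1325 CPM, above the D0 range of 125 to 216 in every library. Their part in the fall of the 5p members was not tested. Library size alone left the median over all miRNAs at D28 at -0.03, against 0.07 with TMM. It moved that median to 0.36 at D7 and 0.34 at D14, from -0.01 and 0.12, and the share of calls that were higher to 95.1% and 88.9%, from 78.9% and 78.7%.

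In FBs 7 of 15 member changes passed, all lower than D0 and all between D3 and D14, and no member passed at D1 or D28. miR-26a-5p had 69203, 62201, 54756 and 55002 CPM at D0, 49441, 43501, 50065 and 45735 at D3, and 56009, 55202, 55919 and 50763 at D28. The D3 libraries were all below D0 and the D28 libraries overlapped it. Its log2 change was -0.68 ± 0.12 at D3 (adjusted p = 6.1e-05), -0.49 ± 0.12 at D7 (0.0020) and -0.34 ± 0.12 at D14 (0.042), and -0.01 ± 0.12 at D28. Without replicate 2 of D0 these were -0.55, -0.35 and -0.23, and the call at D14 was lost (adjusted p = 0.22). The call at D14 was lost in 6 of 8 fits with 1 library left out, with D0 and D14 alone and without the filter on low counts, and the last also ended the call at D7 (adjusted p = 0.091). At these 3 days 20.1%, 21.1% and 10.3% of 563 miRNAs were called lower.

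miR-26b-5p had its largest FB changes at D7 and D14, and whether these days differed from D3 was not tested. It had 5340, 3417, 5315 and 5021 CPM at D0, 2696, 3719, 3864 and 2484 at D7, and 2458, 2800, 2502 and 3033 at D14, where no library overlapped D0. The change was -0.64 ± 0.16 at D3 (adjusted p = 0.0022), -0.81 ± 0.16 at D7 (0.00023) and -0.85 ± 0.16 at D14 (0.00044). Without replicate 2 of D0, the lowest of its group, these were -0.66, -0.81 and -0.89 and all passed. Scaled by library size alone, the change at D3 was -0.31 (adjusted p = 0.12), and D7 and D14 still passed. The call at D3 was also lost without replicate 2 of D3 (-0.45, adjusted p = 0.054).

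miR-26b-3p fell at D7 in FBs. Its CPM was 5.68, 4.06, 4.12 and 5.00 at D0 and 2.65, 2.61, 3.48 and 3.61 at D7, from 9 to 228 counts per library, without overlap. The change was -0.82 ± 0.20 (adjusted p = 0.0017), or -0.75 (0.0045) without replicate 2 of D0. At D14 it had 3.85, 3.59, 2.87 and 3.88 CPM, also below every D0 library, and the change of -0.46 ± 0.19 did not pass (0.080). Whether D7 and D14 differed was not tested. Without the filter on low counts the change at D7 was -0.70 and did not pass (0.090). Over all 6 days the 3 members passed in FBs (adjusted p of 0.00011, 9.1e-05 and 0.00014), beside 68.2% of miRNAs, and in either direction 7.99% of miRNAs changed at D1 and 6.75% at D28.

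The markers in FB libraries showed smaller steps than in CMs. The 3 fibroblast markers had a median summed CPM of 57378 at D0, 78475 at D3 and 52075 at D7, and 1 of the 3 passed as lower at D7. The 4 hematopoietic markers went from 230 to 124 CPM at D7, with 2 of 4 lower. At D7 21.1% of all miRNAs were called lower. The part of these markers in the changes was not tested. Library size alone moved the median over all miRNAs from 0.06 to 0.38 at D3 and from -0.07 to 0.14 at D7, and the share of calls that were higher from 53.3% to 80.3% and from 53.7% to 70.4%. The share moved from 73.3% to 93.9% at D1 and from 71.1% to 50% at D28.

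In HCs 7 of 15 member changes passed, all lower than D0, from D1 to D7 for miR-26a-5p and from D1 to D14 for miR-26b-5p. miR-26a-5p had 48765, 47193, 43913 and 47314 CPM at D0, 36242, 33438, 37837 and 37003 at D1, and 34419, 34860, 35597 and 38813 at D3. All libraries of D1 and D3 were below D0. At D28 it had 59045, 54432, 55541 and 55950 CPM, all above D0. The log2 change was -0.72 ± 0.13 at D1 (adjusted p = 7.5e-05), -0.82 ± 0.13 at D3 (9.2e-06) and -0.54 ± 0.13 at D7 (0.0016), beside 28.9%, 28.1% and 19.6% of 608 miRNAs called lower. At D28 the change was 0.05 ± 0.13 on the TMM scale, and 0.26 ± 0.09 with an adjusted p of 0.020 with library size as the only scaling.

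Replicate 3 of HC D0 held only 803 counts of miR-26a-5p, and its TMM-scaled level was 40477 CPM against 60076 to 62906 in the other 3. Without it the changes of miR-26a-5p were -0.88 at D1, -0.95 at D3 and -0.70 at D7, and the change at D14 went from -0.30 (adjusted p = 0.090) to -0.47 (0.0019). The calls of miR-26a-5p at D1 and D3 held in each alternative and with each library left out. At D7 the call was lost without replicate 3 of D7, with a change of -0.37 and an adjusted p of 0.056.

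miR-26b-5p in HCs had 4521, 4220, 8805 and 3938 CPM at D0 and 4028, 5402, 3862 and 4575 at D3. Replicate 3 of D0 was the highest of its group here and the lowest for miR-26a-5p. In CPM these groups overlapped, and on the TMM scale all libraries of D1 to D14 were below D0. The change was -0.53 ± 0.15 at D1, -0.61 ± 0.15 at D3, -0.63 ± 0.15 at D7 and -0.53 ± 0.15 at D14 (adjusted p of 0.0040, 0.0010, 0.00099 and 0.0096), with 12.8% of miRNAs called lower at D14. Without replicate 3 of D0 these were -0.42, -0.46, -0.52 and -0.43 and all passed. None of the 4 passed with library size as the only scaling, where they were -0.24, -0.22, -0.36 and -0.33. The calls at D1 and D3 were also lost with DESeq2 (adjusted p of 0.060 and 0.10) and with the compared days alone (0.080 and 0.13). Leaving out replicate 1 or 4 of D3 ended the call at D3 (adjusted p of 0.15 and 0.078), and leaving out replicate 3 of D7 ended that at D7 (0.056).

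miR-26b-3p did not pass in HCs, with changes from -0.22 to 0.21 and SEs of 0.24 to 0.25. With library size as the only scaling its change at D3 was 0.75 ± 0.26 (adjusted p = 0.014). At D28 no member passed, beside 12.7% of miRNAs called higher and 11.3% lower. Over all 6 days miR-26a-5p and miR-26b-5p passed (adjusted p of 2.1e-06 and 0.0022), beside 73.5% of miRNAs, and miR-26b-3p did not (0.52). For miR-26b-5p that test did not pass with DESeq2 (0.10), with library size alone (0.45), or without replicate 1, 2 or 4 of D3 or replicate 3 of D7 (0.081 to 0.15).

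Markers of cardiomyocytes, endothelium and mural cells were present in HC libraries and fell after D0. The median summed CPM of the 4 cardiomyocyte markers was 110332 at D0, 46548 at D3 and 31060 at D7, with 4 of 4 lower at both days. The 2 endothelial markers went from 71209 to 19333 at D3, the 2 mural markers from 25921 to 5681, and the 4 hematopoietic markers from 7633 to 21529. Of the hematopoietic markers 3 passed as higher and 1 as lower at D3, and the 2 endothelial and 2 mural markers passed as lower. Of all miRNAs 28.1% were called lower and 30.9% higher at D3, and 19.6% and 29.9% at D7. The part of these markers in the fall of the 5p members was not tested. Library size alone moved the median over all miRNAs to between 0.34 and 0.59, from between -0.08 and 0.18, and the share of calls that were higher to between 69.9% and 81.5%, from between 46.7% and 60.5%.

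**Figure D3:**
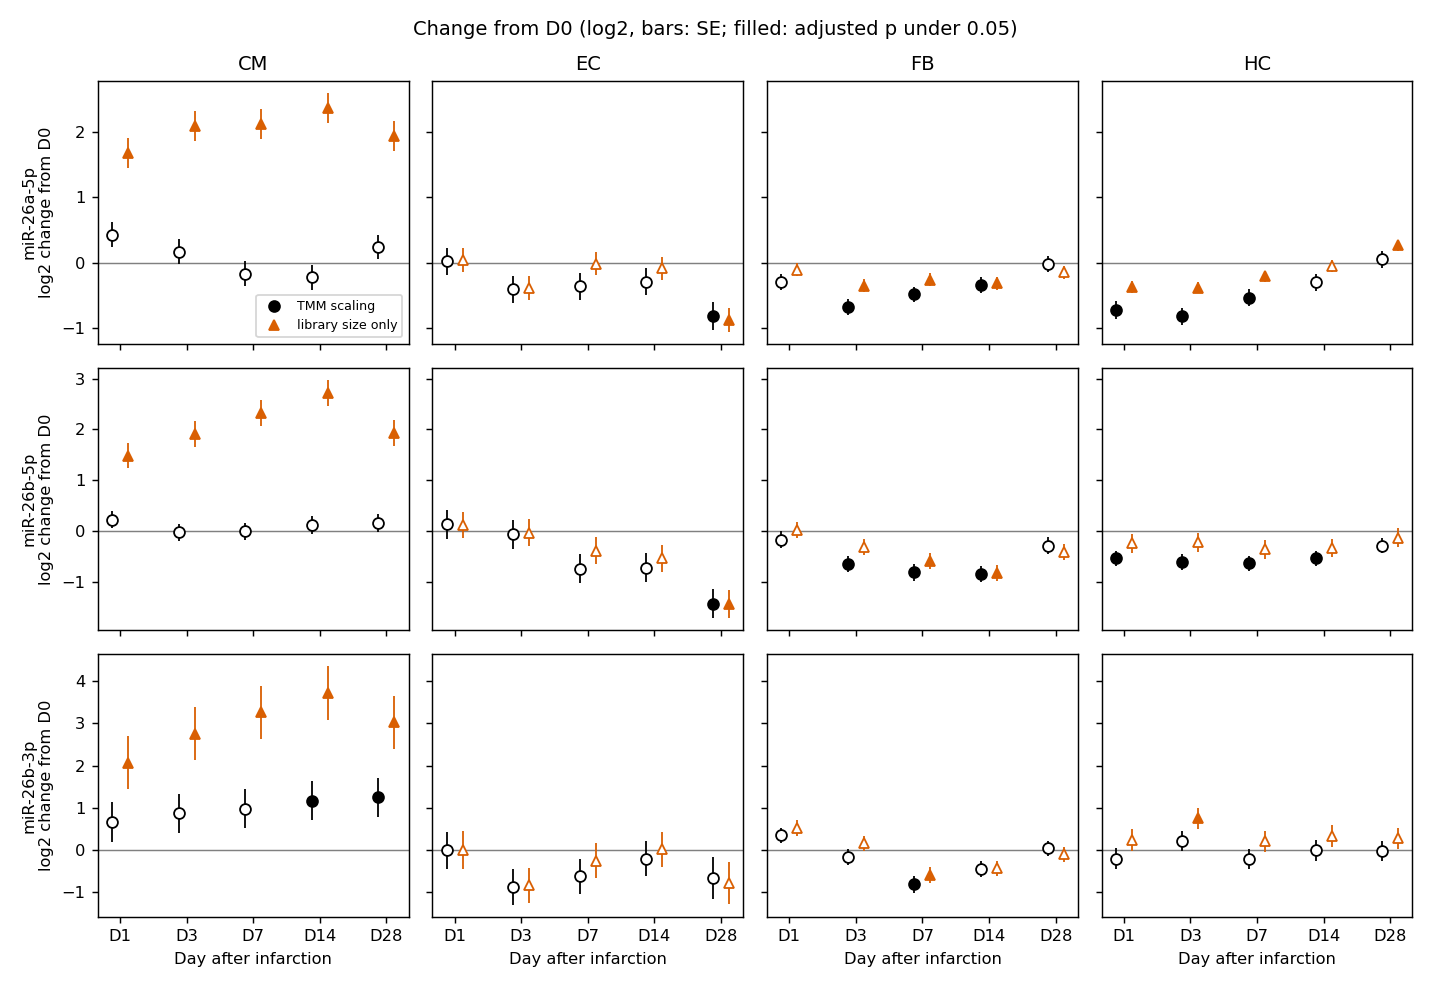
Log2 change from D0 of each member (rows) in CMs, ECs, FBs and HCs (columns) at D1, D3, D7, D14 and D28 on the TMM scale and with library size as the only scaling. Bars are SEs and filled symbols have an adjusted p under 0.05. In CMs the symbols of library size lie between 1.49 and 3.72 and those of TMM between -0.22 and 1.25, and in ECs, FBs and HCs the scalings lie closer together than in CMs.

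Of the 60 member changes, 18 passed on the TMM scale, 2 higher and 16 lower. At the days of these calls 38.0% and 29.5% of all miRNAs were called higher in CMs. In ECs, FBs and HCs 10.3% to 28.9% of all miRNAs were called lower at such days. These 7 held in every alternative and with every library left out: miR-26a-5p and miR-26b-5p in ECs at D28, miR-26a-5p in FBs at D3, miR-26b-5p in FBs at D7 and D14, and miR-26a-5p in HCs at D1 and D3. At each of the 7 the later libraries lay below those of D0 without overlap on the TMM scale. The 7 were picked by tests on the same libraries, so this adds no support to them. The limit of depth at EC D28 is given with the EC results.

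The change after AMI differed between CMs and each other cell type. The difference was tested itself, as the mean change over D1 to D28 in 1 cell type minus that in another, in a fit of all 96 libraries. Against ECs, the mean change of CMs was higher by 0.85 ± 0.20 for miR-26a-5p, 1.07 ± 0.23 for miR-26b-5p and 1.90 ± 0.45 for miR-26b-3p (adjusted p of 0.00024, 6.5e-05 and 0.00025). Against FBs it was higher by 0.67 ± 0.20, 0.88 ± 0.23 and 1.48 ± 0.44 (0.0040, 0.0010 and 0.0040). Against HCs it was higher by 0.80 ± 0.20, 0.85 ± 0.23 and 1.39 ± 0.44 (0.00066, 0.0017 and 0.0080). All 9 differences passed, beside 27.9%, 23.9% and 28.5% of 712 miRNAs that were called higher in the 3 comparisons. Without the filter on low counts, 5 of the 9 no longer passed. They were 0.58 and 0.65 for miR-26a-5p against FBs and HCs (adjusted p of 0.17 and 0.097), 0.76 and 0.69 for miR-26b-5p (0.055 and 0.11), and 1.18 for miR-26b-3p against HCs (0.093). The last was also lost without replicate 3 of CM D0 or replicate 1 of HC D0 (0.055 and 0.057).

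The miRNAs at large moved the same way. The median difference over all 712 was 0.74 against ECs, 0.58 against FBs and 0.74 against HCs, so that miR-26a-5p lay close to the median and miR-26b-3p lay above it in each comparison. Scaled by library size alone, the differences of the members were 2.19 to 3.35 and the medians 1.65 to 1.82, and the share of calls that were higher was 90.5% to 92.7%, from 60.1% to 69.3%. Between ECs, FBs and HCs none of the 9 differences passed, with values from -0.51 to 0.13 and SEs of 0.20 to 0.38, where 7.72%, 20.2% and 17.1% of miRNAs passed in either direction. The share of higher calls among those miRNAs changed with library size from 45.5% to 58.2% for EC against FB, from 56.9% to 46.2% for EC against HC and from 65.6% to 40.7% for FB against HC.

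Day by day, equality of the change in the 4 cell types was tested with 3 degrees of freedom, and 12 of 15 tests passed. The study's methods tie the pools of a time point to the same animals across cell types, without giving which pools match. With the replicate number as a block, miR-26b-5p at D1 did not pass (edgeR, adjusted p = 0.052). The tests that did not pass were miR-26a-5p at D7 (adjusted p = 0.076) and at D14 (0.47) and miR-26b-3p at D1 (0.12). Without the filter on low counts miR-26b-5p did not pass at D1, D3, D7 and D14, nor miR-26b-3p at D14. With 1 library left out, miR-26b-5p at D1 did not pass in 18 of 32 fits. The lowest adjusted p was that of miR-26b-5p at D28 (3.3e-07), where its change was -1.42 in ECs, -0.28 in FBs, -0.28 in HCs and 0.16 in CMs in the fits of each cell type. Of all miRNAs 36.8%, 57.7%, 59.8%, 50.1% and 52.9% passed at the 5 days in turn.

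The ratio of miR-26a-5p to miR-26b-5p compares members with the same seed and is the same under any scaling. Its range was 6.71 to 12.2 in CMs (median 9.37), 6.40 to 19.6 in ECs (10.4), 10.1 to 19.3 in FBs (14.5) and 4.99 to 14.1 in HCs (9.82). In ECs it was 9.09, 9.32, 8.15 and 8.90 at D0, 7.02, 6.77, 6.50 and 7.57 at D3, and 10.9, 12.3, 10.4 and 13.0 at D7. At D14 it was 10.8, 11.2, 10.7 and 19.6 and at D28 10.4, 11, 14.6 and 19.4. The D3 libraries were all below D0, and those of D7, D14 and D28 were all above it.

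On the log2 scale the EC ratio differed from D0 by -0.35, 0.39, 0.51 and 0.60 at D3, D7, D14 and D28. Each had p = 0.0286 in a two-sided exact permutation test of 4 against 4 libraries, the smallest p that its 70 arrangements allow, and an adjusted p of 0.143 over 20 comparisons. In FBs at D14 the ratio was 19.3, 18.1, 18.5 and 16.4, against 13.0, 18.2, 10.3 and 11 at D0, a log2 difference of 0.50 (exact permutation p = 0.0857, adjusted 0.286). In CMs at D14 it was 6.71, 7.73, 7.03 and 8.06, against 9.85, 9.12, 7.30 and 11.4, a difference of -0.34 (exact permutation p = 0.0857, adjusted 0.286). None of the 20 adjusted p was under 0.05. When the reads listed under the hairpins were added to the mature counts, an alternative chosen after seeing the data, the CM difference at D14 was -0.50 and the groups did not overlap (exact permutation p = 0.0286, adjusted 0.114). With these reads added, the ratio itself ran from 3.46 to 6.58 in CMs and from 4.55 to 12.5 in ECs. It ran from 6.46 to 12.5 in FBs and from 2.84 (replicate 3 of D0) to 6.93 in HCs.

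**Figure D4:**
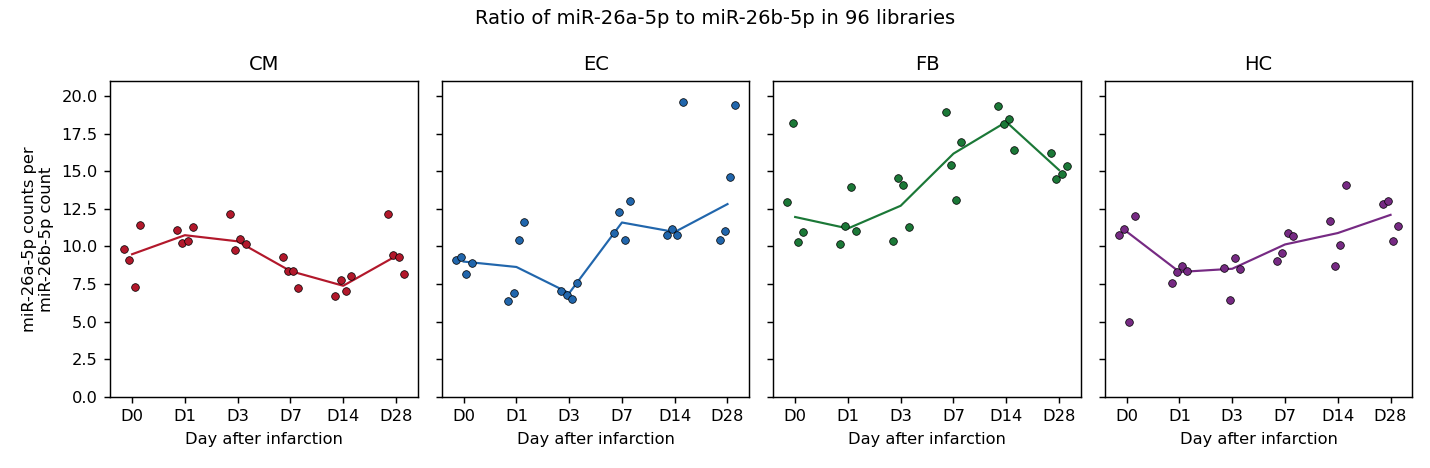
Number of miR-26a-5p counts per miR-26b-5p count (linear axis from 0) in each of the 4 libraries of a day, for CMs, ECs, FBs and HCs. Points are libraries and lines join the group medians. In ECs the points of D3 lie between 6.50 and 7.57 and those of D7 to D28 between 10.4 and 19.6, below and above the D0 points of 8.15 to 9.32.

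The arms of miR-26b kept a strong bias to the 5p arm in every cell type. The log2 of 5p over 3p counts (pseudocount 0.5) averaged 9.67 ± 0.31 in FBs, 9.61 ± 0.77 in ECs, 9.32 ± 0.80 in CMs and 8.81 ± 0.41 in HCs (SD, n = 24). In CMs it was 10.2 ± 1.2 at D0 (SD, n = 4), and 9.03 ± 0.44, 8.93 ± 0.48 and 8.91 ± 0.43 at D7, D14 and D28. The differences from D0 were -1.13 ± 0.50, -1.22 ± 0.50 and -1.24 ± 0.50 (limma, adjusted p of 0.048, 0.034 and 0.033). At these days 70.7%, 72.7% and 67.7% of 99 hairpins passed in CMs, and the test over all 6 days did not pass for miR-26b (adjusted p = 0.11, beside 70.7% of hairpins).

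These CM differences rested on few 3p counts. Without replicate 2 of D0, with its 1 count, they were -0.60, -0.69 and -0.71, and with a pseudocount of 5 they were -0.22, -0.39 and -0.40, and none of the 3 calls held in either case. Of 8 fits with 1 library left out, 5 ended the call at D7, 4 that at D14 and 5 that at D28. No day passed in ECs, FBs or HCs, where 0.0% to 38.5%, 0.68% to 25.9% and 0.0% to 22.4% of hairpins passed at a day. The FB difference at D3 was -0.48 ± 0.19 (adjusted p = 0.072, beside 25.9% of 147 hairpins).

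The deposited hairpin tables list counts for reads that were not listed under a mature arm, and mir-26b had a large share of them. Of the counts of mir-26b in both tables, 44.9% to 59.2% were in the hairpin table in CMs, 33.0% to 50.7% in ECs, 35.0% to 46.2% in FBs and 46.2% to 64.0% in HCs. For miR-26a, taking the larger of its 2 hairpin copies, the share was 7.92% to 16.9% in CMs, 4.78% to 11.6% in ECs, 5.35% to 10.9% in FBs and 10.2% to 20.1% in HCs. Across 178 hairpins with at least 96000 counts in all, the median share was 38.1% and that of mir-26b was 47.3%, with 72 hairpins above it. A read can be listed under more than 1 hairpin, so these shares describe the tables and not molecules.

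In HCs the mir-26b share was higher at every day after AMI than at D0. It averaged 48.2% ± 1.8 at D0 (SD, n = 4), and 58.5% ± 3.6, 61.5% ± 2.3, 56.7% ± 1.3, 56.1% ± 1.6 and 55.2% ± 0.45 at the 5 later days in turn, and no library of these days overlapped D0. The D0 value of replicate 3, 50%, came from 161 hairpin counts, and the other 3 libraries of D0 lay between 46.2% and 49.6%. In CMs it was 48.6% ± 3.0 at D0 and 56.8% ± 1.1 at D28, without overlap at D7, D14 or D28. In ECs it was 38.1% ± 1.3 at D0 and 42.5% ± 1.5 at D7, without overlap at D7 or D14. Each comparison without overlap had p = 0.0286 in the exact permutation test and an adjusted p of 0.0571 over the 20 comparisons, which were made after the data were seen. For mir-26b the D0 group of FBs overlapped every later day. The miR-26a share rose in HCs as well, from a mean of 11.5% at D0 to 19.4% at D1 and 15.2% at D3. It did not overlap D0 at D1, D3 or D28 in HCs. The same held at D3, D7 and D28 in CMs and D3 in FBs (exact permutation test, adjusted p = 0.0816 for each). Reads without a match made up 34.3% to 51.6% of the HC mature counts listed at D0 and 52.1% to 73.8% at D1. How other hairpins moved by day was not tested.

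**Figure D5:**
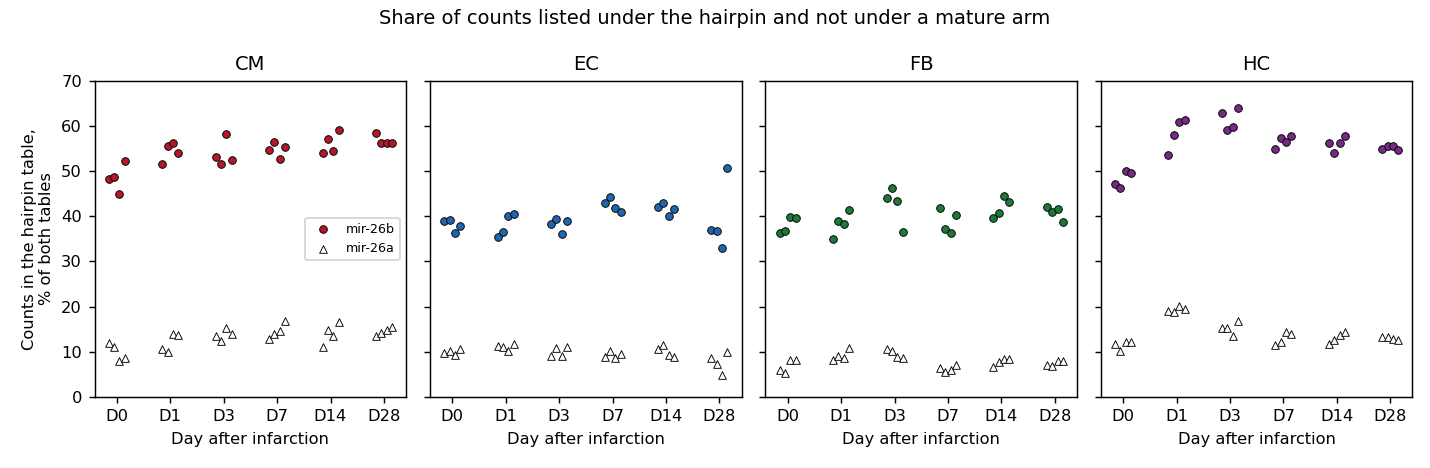
Percent of the counts of mir-26b (filled points) and of miR-26a (open points, larger of 2 hairpin copies) that were listed in the hairpin table and not under a mature arm, in the 4 libraries of each day and cell type. In HCs the mir-26b points of D1 to D28 lie between 53.6% and 64.0%, above the D0 points of 46.2% to 50%.

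Other families known to restrain growth, division or matrix production were read for comparison, as a list of 23 miRNAs from let-7, miR-15, miR-29, miR-30, miR-34 and miR-101, all of them tested in each cell type. In FBs at D7, 18 of 23 were lower and 2 higher than D0, beside 21.1% and 24.5% of all miRNAs, with a median log2 change of -0.58 against -0.07 over all miRNAs. miR-15a-5p had the largest fall, -1.78 ± 0.48 (adjusted p = 0.0040), and miR-34a-5p, a target of p53, the largest rise, 0.73 ± 0.21 (0.0065). In FBs at D3 the counts were 12 lower and 1 higher (20.1% and 22.9% of all miRNAs), and at D14 they were 7 lower and 1 higher (10.3% and 14.4%), the days at which members of miR-26 were also lower.

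In HCs at D7, 8 of 23 were lower and 4 higher, beside 19.6% and 29.9% of all miRNAs, with a median of -0.16 against 0.18 over all miRNAs. At D1 the counts were 11 lower and 3 higher (28.9% and 25.3% of all miRNAs) and at D3 9 lower and 6 higher (28.1% and 30.9%), with medians of -0.39 and -0.26 against -0.08 and 0.02. miR-195a-5p had the largest fall at D7, -1.39 ± 0.22 (adjusted p = 1.2e-05), and miR-15b-5p the largest rise, 1.09 ± 0.21 (0.00011). In ECs at D28, 11 of 23 were lower and 7 higher, beside 20.2% and 26.8% of all miRNAs, with a median of -0.30 against 0.07. At D7 in ECs 3 were lower and 0 higher, beside 4.75% and 17.8% of all miRNAs, and the extremes, miR-29b-3p at -1.10 ± 0.44 and miR-15b-5p at 0.60 ± 0.27, did not pass. In CMs at D7, 9 of 23 were lower and 8 higher, beside 30.2% and 38.8% of all miRNAs, with a median of -0.25 against 0.35, from let-7i-5p at -1.93 ± 0.28 to miR-29b-3p, a repressor of collagens, at 4.34 ± 0.60 (adjusted p of 4.2e-06 and 2.3e-06).

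The likeness of the members' profiles over the 24 groups was described by correlation. The Pearson correlation of mean log2 CPM (TMM scale) was 0.71 between miR-26a-5p and miR-26b-5p, 0.45 between the arms of miR-26b and 0.17 between miR-26a-5p and miR-26b-3p. Among 709 other miRNAs the closest to miR-26a-5p were miR-152-3p (r = 0.86), miR-598-3p (0.83) and miR-195a-5p (0.80). The closest to miR-26b-5p were miR-151-5p (0.85), miR-145a-5p (0.79) and miR-3102-3p.2-3p (0.75), and the closest to miR-26b-3p were miR-338-3p (0.84), miR-425-3p (0.82) and miR-29b-1-5p (0.79). The groups share cell types, library batches and scaling, and the lists depended on the scaling. With plain CPM the closest to miR-26a-5p were miR-23b-3p (r = 0.97), miR-23a-3p (0.96) and miR-187-3p (0.95), and the closest to miR-26b-5p were miR-23a-3p (0.94), miR-361-5p (0.93) and miR-23b-3p (0.93). Those closest to miR-26b-3p were then miR-93-5p, miR-103-3p and miR-16-5p (0.92, 0.92 and 0.91).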

How the data were processed

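Small RNA libraries of CMs, ECs, FBs and HCs were sequenced at D0, D1, D3, D7, D14 and D28, with 4 pooled RNA samples in each of 24 groups given by GEO's labels. Per the labels and the study's methods, the authors trimmed reads with Trim Galore, removed reads under 18 nt and counted them with the nf-core small RNA pipeline against miRBase mature sequences and hairpins, and Bowtie2, SAMtools and mm10 are named in the submitters' processing notes. Tool versions are not given in the sources used here. The authors deposited raw read counts per mature miRNA and per hairpin, 192 tables in all. The lines for reads without a match, 25.6% to 83.0% of a table, were left out of totals and tests. The totals of mature counts, given per cell type above, set the precision, and the exact 95% intervals and the floor of 3 counts cover counting error only.

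Counts were tested within each cell type with edgeR 4.0.16 (R 4.3.3), by the quasi-likelihood test with TMM scaling, filterByExpr and Benjamini-Hochberg adjustment over all miRNAs, with an adjusted p under 0.05 as the threshold. An SE is the absolute log2 change divided by the square root of F. Levels and differences of changes between cell types were fitted over the 96 libraries. Arm ratios were tested, for all hairpins whose arms each averaged 10 counts or more, with limma 3.58.1. The 26a to 26b ratio was tested with a two-sided exact permutation test coded with numpy 2.4.6. The exact binomial intervals came from scipy 1.17.1. The scripts were tested on simulated counts before use.

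The members, lists and tests were chosen with earlier results of these data known. Named with values are the members, the other arms of their hairpins, miRNAs with the same seed, the 3 miRNAs of most like profile, and the largest rise and fall at D7 in the list of growth-restraining families. Alternatives were library size with and without miR-1a-3p, no filter, the replicate block, compared days alone, DESeq2 1.42.0, other pseudocounts and count minimums, D0 alone, and leaving out each library or the 3 farthest. The addition of hairpin reads, the shares of hairpin reads and the comparison of changes without a filter were chosen after seeing the data. Same-numbered libraries met the check for pairing in 0 of 20 comparisons of days and 1 of 36 of cell types (CMs with HCs at D1), and no block entered the main tests. Libraries of different days held different mice, so the comparisons of days could not show shared animals. For cell types the check cannot exclude shared animals, and the fits over all libraries took them as independent. Replicates are separate RNA pools of 2 or 3 mice, and p-values measure the spread between pools.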

Additional observations from a re-analysis of the deposited data

Results flagged for a closer look

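In groups of 4 libraries, a library was looked at again when its gap to the nearest other exceeded Dixon's 95% critical value for 4 samples, as a share of the range. This held in 17 of 120 groups, where chance gives about 1 in 20. For miR-26a-5p the log2 CPM was 15.87 in replicate 1 of EC D0 (the others 15.55 to 15.59), 15.94 in replicate 3 of EC D1 (15.56 to 15.62), 15.10 in replicate 1 of EC D3 (15.30 to 15.33) and 15.63 in replicate 4 of FB D28 (15.75 to 15.77). For miR-26b-5p it was 10.15 in replicate 1 of CM D28 (10.81 to 10.92), 11.08 in replicate 4 of EC D14 (12.17 to 12.19) and 11.74 in replicate 2 of FB D0 (12.29 to 12.38).

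The miR-26b-3p values were 0.60 in replicate 1 of CM D28 (2.05 to 2.34), 2.60 in replicate 1 of FB D1 (2.83 to 2.88), 2.35 in replicate 1 of HC D1 (3.37 to 3.43) and 3.45 in replicate 4 of HC D14 (3.23 to 3.25). The log2 ratio of miR-26a-5p to miR-26b-5p was 4.29 in replicate 4 of EC D14 (3.43 to 3.48) and 2.31 in replicate 3 of HC D0 (3.43 to 3.59), the library with 18286 counts. The log2 ratio of the miR-26b arms was 10.06 in replicate 2 of EC D3 (10.59 to 10.69), 9.88 in replicate 1 of HC D1 (8.61 to 8.73), 7.62 in replicate 1 of HC D3 (8.67 to 8.82) and 8.24 in replicate 4 of HC D14 (8.82 to 8.94).

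The change after AMI differed between cell types in 21 of 33 tests of the difference itself. Of all 712 miRNAs, 36.8% to 59.8% passed the tests over the 4 cell types at a day. In the comparisons of CMs with ECs, FBs and HCs 27.9%, 23.9% and 28.5% were called higher, and among the other pairs 7.72% to 20.2% passed. The mean change in CMs exceeded that in ECs by 0.85, 1.07 and 1.90 for miR-26a-5p, miR-26b-5p and miR-26b-3p, that in FBs by 0.67, 0.88 and 1.48, and that in HCs by 0.80, 0.85 and 1.39. The median over all miRNAs exceeded them by 0.74, 0.58 and 0.74. Over the 4 cell types the adjusted p (edgeR) for miR-26a-5p was 0.00013, 9.9e-06 and 1.8e-05 at D1, D3 and D28. For miR-26b-5p it was 0.027, 0.0099, 0.0020, 0.00058 and 3.3e-07 at the 5 days in turn. For miR-26b-3p it was 0.0025, 0.0017, 0.0085 and 0.0063 at D3, D7, D14 and D28. The markers of other cell types that moved in CM libraries are given with the CM results, and their part was not tested.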

How the results depend on the processing

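Of the 18 member changes that passed, 7 held under every alternative and with every library left out. The scaling of the libraries had the widest effect in CMs, where 2 member changes passed with TMM and 15 with library size. The shares of all miRNAs that passed within a cell type under the alternatives are not given here. Counts of member changes that passed under them are therefore not a result about the members. TMM assumes that most miRNAs keep their level, and miR-1a-3p took a mean of 65.7% of CM counts at D0 and 35.3% at D14. Which scaling holds in CMs was not tested. Depth limits miR-26b-3p, with 1 to 10 counts per library at CM D0 and none in replicate 3 of EC D28 or of HC D0, the last of which held 18286 counts in all. The 26a to 26b ratio compares 4 with 4 libraries and cannot give an unadjusted p under 0.0286. The values below are those that changed sign or side of the threshold, many of them from changes near 0 that passed in neither case, and the cause was not tested. Adding hairpin reads to the 26a to 26b ratio and testing the differences of changes without a filter were chosen after seeing the data.

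With scaling by library size alone, the log2 change from D0 was 1.91 at D3 and 2.32 at D7 for miR-26b-5p in CMs, 2.13 at D7 and 2.37 at D14 for miR-26a-5p in CMs, 0.0025 at D1 and 0.015 at D14 for miR-26b-3p in ECs, 0.018 at D1 for miR-26b-5p in FBs, 0.15 at D3 and -0.10 at D28 for miR-26b-3p in FBs, and 0.23, 0.20, 0.33 and 0.28 at D1, D7, D14 and D28 for miR-26b-3p in HCs. The adjusted p over the 6 days was 3.7e-07 in CMs and 0.45 in HCs for miR-26b-5p, and 0.00032 in CMs for miR-26b-3p. The log2 difference in level was -1.62 for CM minus EC, -1.36 for CM minus FB, -1.63 for CM minus HC, -0.010 for EC minus HC and -0.27 for FB minus HC (miR-26b-5p), -1.23 for CM minus EC, -0.87 for CM minus FB, -1.94 for CM minus HC and -0.71 for EC minus HC (miR-26b-3p), and -1.68 for CM minus HC, -0.25 for EC minus FB and 0.041 for EC minus HC (miR-26a-5p). The difference of the mean log2 changes was -0.087 for FB minus HC (miR-26a-5p). Comparing 4 cell types, the adjusted p was 0.012 at D1 for miR-26b-3p, and 2.1e-16 at D7 and 3.9e-18 at D14 for miR-26a-5p, and the number of member changes that passed was 15 in CMs. With library size without miR-1a-3p, the log2 change from D0 was 1.30 at D3 and 1.55 at D7 for miR-26b-5p in CMs, 1.36 at D7 and 1.40 at D14 for miR-26a-5p in CMs, -0.0047 at D1 for miR-26a-5p in ECs, 0.019 at D1 for miR-26b-5p in FBs, 0.15 at D3 and -0.10 at D28 for miR-26b-3p in FBs, and 0.22, 0.097, 0.26 and 0.17 at D1, D7, D14 and D28 for miR-26b-3p in HCs. The adjusted p over the 6 days was 3.1e-05 in CMs and 0.24 in HCs for miR-26b-5p, and 0.0036 in CMs for miR-26b-3p. The log2 difference in level was -0.68 for CM minus EC, -0.32 for CM minus FB, -0.68 for CM minus HC, 0.0061 for EC minus HC and -0.36 for FB minus HC (miR-26b-5p), -0.32 for CM minus EC, 0.15 for CM minus FB, -1.0 for CM minus HC and -0.69 for EC minus HC (miR-26b-3p), and -0.72 for CM minus HC, -0.15 for EC minus FB and 0.058 for EC minus HC (miR-26a-5p). The difference of the mean log2 changes was -0.0017 for FB minus HC (miR-26a-5p). Comparing 4 cell types, the adjusted p was 1.9e-10 at D7 and 1.1e-10 at D14 for miR-26a-5p, and the number of member changes that passed was 15 in CMs. Without the filter on low counts, the log2 change from D0 was 0.30 at D3 and 0.35 at D7 for miR-26b-5p in CMs, 0.18 at D7 and 0.11 at D14 for miR-26a-5p in CMs, -0.049 at D1 for miR-26a-5p in ECs, 0.041 at D28 for miR-26a-5p in FBs, and -0.066 at D28 for miR-26a-5p in HCs. The adjusted p over the 6 days was 0.14 in CMs for miR-26a-5p. The log2 difference in level was -0.13 for CM minus EC and 0.18 for CM minus HC (miR-26a-5p), 0.24 for CM minus HC and -0.044 for FB minus HC (miR-26b-5p), and -0.16 for CM minus HC and -0.42 for EC minus HC (miR-26b-3p). The difference of the mean log2 changes was 0.58 for CM minus FB and 0.65 for CM minus HC (miR-26a-5p), 0.76 for CM minus FB and 0.69 for CM minus HC (miR-26b-5p), and 1.18 for CM minus HC (miR-26b-3p). Comparing 4 cell types, the adjusted p was 0.42, 0.37, 0.16 and 0.067 at D1, D3, D7 and D14 for miR-26b-5p, and 0.091 at D14 for miR-26b-3p, and the number of member changes that passed was 4 in FBs.

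With DESeq2, the log2 change from D0 was 0.0023 at D3 and 0.088 at D7 for miR-26b-5p in CMs, -0.0090 at D1 for miR-26a-5p in ECs, and 0.0020 at D7, 0.12 at D14 and 0.060 at D28 for miR-26b-3p in HCs. The adjusted p over the 6 days was 0.10 in HCs for miR-26b-5p. The log2 difference in level was -0.25 for CM minus EC and 0.047 for CM minus FB (miR-26b-5p), -0.10 for CM minus HC and -0.17 for EC minus HC (miR-26b-3p), and -0.21 for EC minus FB (miR-26a-5p), and the number of member changes that passed was 5 in CMs and 7 in ECs. With D0 and the compared day alone, the log2 change from D0 was 0.019 at D3 and 0.13 at D7 for miR-26b-5p in CMs, and 0.23 at D28 for miR-26b-3p in HCs, and the number of member changes that passed was 1 in CMs and 7 in ECs. At D0 alone, the log2 difference in level was -1.07 for CM minus EC, -0.51 for CM minus FB, -0.10 for CM minus HC and 0.41 for FB minus HC (miR-26b-5p), -1.45 for CM minus EC, -0.56 for CM minus FB, -0.94 for CM minus HC and -0.39 for FB minus HC (miR-26b-3p), and -0.11 for CM minus HC and 0.034 for EC minus FB (miR-26a-5p). Without the 3 farthest libraries, the log2 change from D0 was -0.069 at D1 for miR-26a-5p in ECs, 0.046 at D28 for miR-26a-5p in FBs, and -0.10 at D28 for miR-26a-5p in HCs. The difference of the mean log2 changes was 0.078 for EC minus FB (miR-26b-5p), and 0.25 for EC minus HC (miR-26a-5p). Comparing 4 cell types, the adjusted p was 0.044 at D1 for miR-26b-3p, and 0.0041 at D7 for miR-26a-5p. The log2 difference of the 26a to 26b ratio from D0 was 0.024 at D1 and 0.13 at D3 in FBs, and -0.18 at D7 and -0.046 at D14 in HCs. The log2 difference of the miR-26b arm ratio from D0 was -0.083 at D7 in FBs, and -0.13 at D1 and -0.11 at D28 in HCs. The adjusted p of the miR-26b arm ratio over the 6 days was 0.042 in FBs, and the number of member changes that passed was 4 in ECs. With a pseudocount of 5, the log2 difference of the miR-26b arm ratio from D0 was 0.30 at D1 in CMs, -0.028 at D7 in FBs, and 0.32 at D3, 0.70 at D7 and 0.60 at D14 in HCs. The adjusted p of the miR-26b arm ratio over the 6 days was 0.0040 in ECs. With a minimum mean of 50 counts per arm, the adjusted p of the miR-26b arm ratio over the 6 days was 0.044 in FBs. With the hairpin reads added, the log2 difference of the 26a to 26b ratio from D0 was -0.12 at D28 in CMs, and -0.11 at D7 in HCs.

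The study's methods tie the pools of a time point to the same animals across cell types, but no label says that equal replicate numbers mark the same pool. The numbers were not used as pairs in the main tests. All 4 correlations between the deviations of same-numbered libraries exceeded 0.1 in 0 of 20 comparisons of days and 1 of 36 comparisons of cell types, with values from -0.47 to 0.37. This check cannot exclude animals shared between cell types. With the replicate number as a block, the log2 change from D0 was 0.0096 at D7 for miR-26b-5p in CMs, and 0.022 at D14 and 0.0056 at D28 for miR-26b-3p in HCs. The difference of the mean log2 changes was 0.0061 for FB minus HC (miR-26b-3p). Comparing 4 cell types, the adjusted p was 0.052 at D1 for miR-26b-5p, and the number of member changes that passed was 4 in CMs. With the block, miR-26a-5p at D14 in FBs no longer passed (-0.34, edgeR adjusted p = 0.055). Passing only with it were miR-26a-5p at D1 and miR-26b-3p at D7 in CMs and miR-26b-5p at D7 in ECs, at 0.45, 1.02 and -0.76 (edgeR adjusted p of 0.043, 0.046 and 0.039). It changed no other call.

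With each library left out in turn, the log2 change from D0 ranged over -0.19 to 0.0071 at D3, -0.18 to 0.060 at D7, -0.12 to 0.18 at D14 and -0.0027 to 0.20 at D28 for miR-26b-5p in CMs, -0.025 to 0.079 at D1 for miR-26a-5p in ECs, -0.050 to 0.30 at D1 for miR-26b-5p in ECs, -0.23 to 0.14 at D1 for miR-26b-3p in ECs, -0.067 to 0.043 at D28 for miR-26a-5p in FBs, -0.026 to 0.12 at D28 for miR-26b-3p in FBs, -0.12 to 0.11 at D14 and -0.13 to 0.087 at D28 for miR-26b-3p in HCs, and -0.074 to 0.11 at D28 for miR-26a-5p in HCs. The adjusted p over the 6 days ranged over 0.014 to 0.45 in ECs for miR-26b-3p, and 0.0022 to 0.15 in HCs for miR-26b-5p. The log2 difference in level ranged over -0.22 to -0.13 for CM minus EC and 0.099 to 0.24 for CM minus FB (miR-26b-5p), 0.059 to 0.34 for CM minus EC and -0.14 to 0.15 for EC minus HC (miR-26b-3p), and -0.25 to -0.088 for EC minus FB (miR-26a-5p). The difference of the mean log2 changes ranged over 1.06 to 1.84 for CM minus HC and -0.37 to 0.027 for FB minus HC (miR-26b-3p), -0.094 to 0.20 for FB minus HC (miR-26a-5p), and -0.24 to 0.034 for FB minus HC (miR-26b-5p). For the comparison of 4 cell types the adjusted p ranged over 0.017 to 0.33 at D1 and 0.0053 to 0.055 at D3 for miR-26b-5p, 0.027 to 0.31 at D1 and 0.0027 to 0.055 at D14 for miR-26b-3p, and 0.011 to 0.31 at D7 for miR-26a-5p. The log2 difference of the 26a to 26b ratio from D0 ranged over -0.060 to 0.15 at D28 in CMs, -0.20 to 0.086 at D1 in ECs, -0.25 to 0.024 at D1 and -0.14 to 0.13 at D3 in FBs, and -0.18 to 0.25 at D7 and -0.046 to 0.38 at D14 in HCs. The log2 difference of the miR-26b arm ratio from D0 ranged over -0.80 to 0.15 at D1 in CMs, -0.19 to 0.19 at D1, -0.34 to 0.045 at D7 and -0.76 to 0.31 at D28 in ECs, -0.13 to 0.21 at D7 in FBs, and -0.24 to 0.18 at D1, -0.26 to 0.037 at D7 and -0.11 to 0.19 at D28 in HCs. The adjusted p of the miR-26b arm ratio over the 6 days ranged over 0.029 to 0.26 in CMs, 0.035 to 0.35 in ECs and 0.016 to 0.13 in FBs, and the number of member changes that passed ranged over 0 to 4 in CMs. The comparison of 4 cell types lost its call for miR-26b-5p at D3 without replicate 2 of FB D3 and for miR-26b-3p at D14 without replicate 3 of CM D0, and gained one for miR-26a-5p at D7 in 8 of 32 fits.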
